A study of Mus musculus with 17 samples.

Results

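The genes described here are those of the aryl hydrocarbon receptor (AHR) pathway in the mouse colon: the receptor Ahr, its partner Arnt, the feedback genes Ahrr and Tiparp, the cytochrome P450 genes Cyp1a1, Cyp1a2 and Cyp1b1, and the quinone reductase gene Nqo1. They were chosen by name, and all 8 were on the array, with 12 of its 56605 probes. For each gene the probe with the highest mean in the authors' processed values was used. Cyp1a1 and Cyp1a2 had 1 probe each, neither of them in those processed values, so that probe was used. The pregnane X receptor (PXR, gene Nr1i2) was activated with its rodent ligand pregnenolone 16α-carbonitrile (PCN) in C57BL/6J male mice, and total RNA of whole colon was read on 17 1-colour arrays.

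The WT CONT (4 arrays) and Pxr-/- CONT (5 arrays) mice received corn oil, the vehicle. The WT PCN (4 arrays) and Pxr-/- PCN (4 arrays) mice received PCN at 100 mg/kg in corn oil, by intraperitoneal injection each day for 4 days. All mice had free access to diet and were killed 6 h after the last injection, at zeitgeber time 6 in the light phase, which the labels call the fed state and the study's text a semi-fasted one. The WT mice were bought from a breeder at 6 weeks of age and acclimatized for 2 weeks, and the age of the Pxr-/- mice was not given in the sources used here. Because the Pxr-/- mice came from an in-house colony, genotype and colony cannot be told apart.

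AHR is a ligand-activated transcription factor. Without a ligand it is held in the cytoplasm by a chaperone complex, and with a ligand it enters the nucleus, pairs with ARNT and binds a short DNA element whose core reads GCGTG. Cyp1a1, Cyp1a2, Cyp1b1, Tiparp and Ahrr are known targets, and Ahrr and Tiparp encode repressors that feed back on the receptor. In the gut, AHR is known as a sensor of dietary indoles and microbial tryptophan products, and Cyp1a1 limits it by clearing those ligands. PXR is a separate nuclear receptor, with Cyp3a genes among its best known targets.

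Several features of the arrays bear on every value below. Arrays WT PCN 4 and Pxr-/- PCN 2 differed with an SD of 0.172 over the log2 values of all probes, and WT PCN 3 and Pxr-/- CONT 2 with an SD of 0.198. The next closest of all pairs had an SD of 0.298. Each pair thus stood closer together than any replicates of 1 group although its labels name different genotypes or treatments, and the differences described below for the probe used of each tested gene are given with all arrays and without these 4. For the 8 genes the absolute log2 difference within these pairs was at most 0.235 (Cyp1a1) and 0.227 (Ahrr). The probe of Nr1i2 itself read 11.97 to 12.31 in WT CONT, 11.10 to 12.44 in WT PCN, 10.39 to 11.61 in Pxr-/- CONT and 10.95 to 11.94 in Pxr-/- PCN. The WT CONT arrays lay above every Pxr-/- array, whereas the WT PCN range overlapped both Pxr-/- ranges. The lowest of WT PCN were arrays 3 (11.10) and 4 (11.15), both near-identical to Pxr-/- arrays, and array 2 read 11.85. Whether this probe lies in the deleted part of the gene is not given in the sources used here. It therefore does not settle the labels. Markers of colonocytes and goblet cells were high on every array, with a lowest list mean of 14.63 and 17.43 on the log2 scale. Pancreatic markers were high on WT CONT 4 (list mean 17.73), WT PCN 3 (15.46), Pxr-/- CONT 2 (15.42) and WT PCN 1 (10.82), and liver markers on WT CONT 5 (11.53), WT PCN 2 (8.70) and WT PCN 1 (8.64) and lower on all other arrays.

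The 5 probes below are those on which the Cyp1 and Ahrr results turn. For each, the first 30 of its 60 bases are printed 5′ to 3′, with the position on mouse build mm9 that the array files give for the whole probe. The files place 47 bases of the Ahrr probe used at the position shown. Both Ahrr probes are assigned to the same transcript record.
Cyp1a1 probe, chr9:57551535-57551594, plus strand: gataatttgctagtgtaacaaagaagattc
Cyp1a2 probe, chr9:57528060-57528119, minus strand: cctggagcattttgctacttgtgacatggc
Cyp1b1 probe, chr17:80106547-80106606, minus strand: actacattaagcagatagatcaccatgtat
Ahrr probe used, chr13:74348566-74348612, minus strand: ggaataaatacaagtgcccttatatttgca
Ahrr second probe, chr13:74350685-74350744, minus strand: actttgcataatgatagtcatggaaacacc

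The promoters of Ahrr, Cyp1b1 and Tiparp, the 3 target genes with an unadjusted difference described below, are shown from RefSeq sequence on build GRCm38.p6. Each run holds the 250 bases before the transcription start, 5′ to 3′ on the gene's strand, and capitals mark the AHR core, searched as GCGTG and, for the other strand, CACGC.
Ahrr promoter, chr13:74292332-74292581, minus strand: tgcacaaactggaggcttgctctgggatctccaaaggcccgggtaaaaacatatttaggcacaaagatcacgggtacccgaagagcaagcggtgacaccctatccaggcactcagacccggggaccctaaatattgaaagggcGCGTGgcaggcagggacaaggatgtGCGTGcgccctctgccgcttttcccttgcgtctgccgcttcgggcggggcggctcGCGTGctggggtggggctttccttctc
Cyp1b1 promoter, chr17:79715062-79715311, minus strand: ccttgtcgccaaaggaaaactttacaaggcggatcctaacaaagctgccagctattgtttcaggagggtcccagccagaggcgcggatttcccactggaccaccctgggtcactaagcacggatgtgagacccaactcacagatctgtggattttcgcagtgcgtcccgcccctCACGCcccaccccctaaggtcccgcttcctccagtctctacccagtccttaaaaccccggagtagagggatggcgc
Tiparp promoter, chr3:65528197-65528446, plus strand: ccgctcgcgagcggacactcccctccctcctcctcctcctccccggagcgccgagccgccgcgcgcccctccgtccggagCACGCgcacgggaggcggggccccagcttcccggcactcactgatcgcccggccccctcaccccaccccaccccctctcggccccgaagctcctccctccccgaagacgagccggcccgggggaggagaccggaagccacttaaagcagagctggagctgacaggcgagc
The Ahrr window held 3 cores, whose first letters lie 107, 82 and 27 bases before the start. Cyp1b1 held 1 core at 76 bases and Tiparp 1 at 170 bases, both on the other strand. Of the 7 genes with an entry, Cyp1a1 and Arnt also had 1 core each, and Cyp1a2 and Nqo1 had none in this window. Among all 32851 promoters of the table, 28.2% held 1 core or more and 2.77% held 3 or more. A match to these letters is a description and not a binding site.

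The Cyp1 family genes encode the enzymes that oxidise AHR ligands. Cyp1a1, the most used readout of AHR activity, was not well above background on any of the 17 arrays, and neither was Cyp1a2, best known from the liver. The scanner median signal of Cyp1a1 was 33, 29, 49 and 35 units on WT CONT arrays 2 to 5 and 32, 29, 30 and 27 on WT PCN arrays 1 to 4. It was 53.5, 30.5, 29, 29.5 and 35 on Pxr-/- CONT arrays 1 to 5 and 33, 33, 30 and 35.5 on Pxr-/- PCN arrays 1 to 4. The groups overlapped, and the highest values, on Pxr-/- CONT 1 and WT CONT 4, were not well above background. The 95th percentile of the 308 negative control spots lay between 30 and 50.3 units, the latter on WT CONT 4. Cyp1a1 exceeded that of its own array on 4 of 17 arrays, WT CONT 4 not among them. Cyp1a2 read 23 to 42 units and exceeded it on 2 arrays, WT CONT 5 (42 units) and Pxr-/- PCN 1 (34.5 units). WT CONT 5 was also the array with the highest liver marker mean, while on Pxr-/- PCN 1 that mean was between 6.43 and 6.56, the range of its group. The part of liver RNA in the Cyp1a2 signal was not tested. Neither gene passed the filter on dim probes, so no fold is given for them, and a change below the array's background was not detectable.

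**Figure D1:**
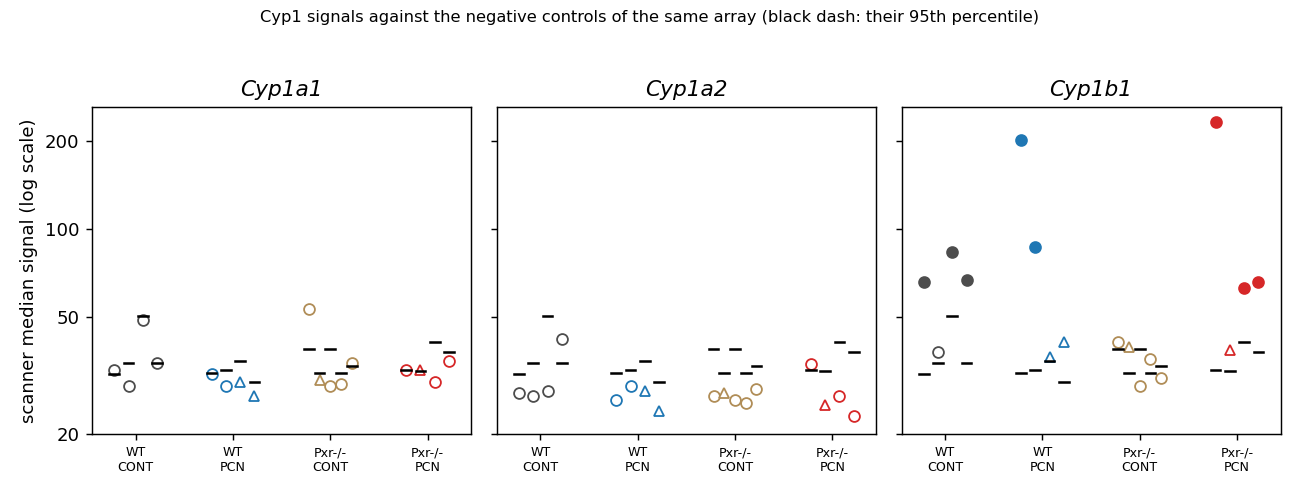
Scanner median signal, on a log scale, of Cyp1a1, Cyp1a2 and Cyp1b1 on each array of the 4 groups. Filled points are well above background by the scanner software, triangles are the 4 near-identical arrays and black dashes give the 95th percentile of the negative controls of the same array. No Cyp1a1 or Cyp1a2 point is filled, whereas Cyp1b1 has 8 filled points and reached 232 units on Pxr-/- PCN 1.

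The other 6 genes were tested with limma over all 38703 probes well above background on at least 4 arrays. A probe was called at an adjusted p of at most 0.05 with a fold over 1.5. With PCN in WT mice 0 of 6 were called, against 0% of all probes. There 0 of 6 had an unadjusted p under 0.05, as had 2.49% of all probes with a higher and 2.17% with a lower value. With PCN in Pxr-/- mice 0 of 6 were called, against 0.00517% of all probes. Here 3 of 6 had an unadjusted p under 0.05. Cyp1b1 was higher, as were 3.4% of all probes, and Tiparp and Ahrr (probe used) were lower, as were 3.95%. The second Ahrr probe, dim on most arrays, went the other way, as described below. Between genotypes 0 of 6 were called in the CONT mice and in the PCN mice, each against 0% of all probes. At an unadjusted p under 0.05 it was again 0 of 6 in both, against 6.17% of all probes higher and 6.52% lower in Pxr-/- CONT mice and 1.44% higher and 1.85% lower in Pxr-/- PCN mice. The difference between the PCN responses of both genotypes was called for 0 of 6, against 0% of all probes, and had an unadjusted p under 0.05 for 0 of 6, against 2.43% above and 2.95% below 0. With the 4 near-identical arrays left out, the count of called genes was again 0 of 6 in each of these 5 comparisons, against 0.0491%, 0.0517%, 0%, 0.0207% and 0.00258% of all probes in the same order. With PCN in Pxr-/- mice Cyp1b1 was then again higher at an unadjusted p under 0.05, as were 3.56% of all probes, and Tiparp and Ahrr lower, as were 3.63%. Cyp1b1 alone of the 6 then had such a p in WT mice too, where 3.12% of all probes were higher.

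**Figure D2:**
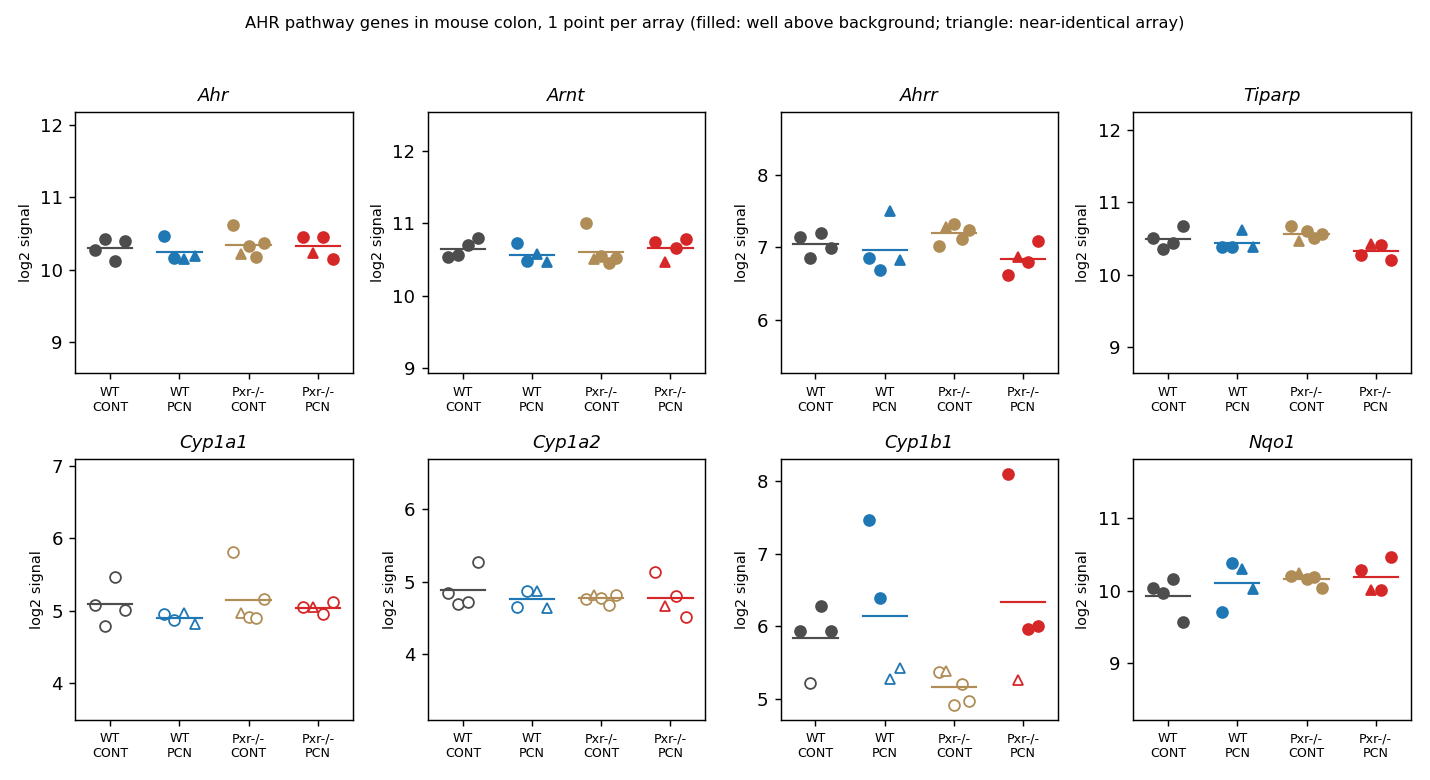
Normalized log2 signal of the 8 genes on each array, 1 panel per gene with the same height of scale, and a line at each group mean. Filled points are well above background and triangles are the 4 near-identical arrays. The Cyp1b1 points spread over 3.18 log2 units and those of Ahr and Tiparp over 0.503 and 0.462.

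Cyp1b1, the Cyp1 enzyme known from stromal and immune cells as well as epithelium, varied most among the 6 genes tested: its SD over the 17 arrays was 0.865 on the log2 scale, above that of 98.4% of all probes tested. Its log2 signal was 5.94, 5.21, 6.27 and 5.94 on WT CONT arrays 2 to 5 and 7.46, 6.39, 5.28 and 5.43 on WT PCN arrays 1 to 4. It was 5.37, 5.38, 4.92, 5.20 and 4.96 on Pxr-/- CONT arrays 1 to 5 and 8.10, 5.26, 5.97 and 6.01 on Pxr-/- PCN arrays 1 to 4. The 2 highest arrays, Pxr-/- PCN 1 and WT PCN 1, were both from PCN mice, and the 3 PCN arrays lowest in their groups, WT PCN 3 and 4 and Pxr-/- PCN 2, all belong to the near-identical pairs. On none of the 5 Pxr-/- CONT arrays was the probe well above background, while it was on 3 of 4 in each of WT CONT and Pxr-/- PCN and on 2 of 4 in WT PCN.

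In Pxr-/- mice Cyp1b1 was 2.39-fold higher with PCN (log2 difference 1.26, SE 0.406), with an exact two-sided permutation p of 0.0238, a limma p of 0.00756 and a limma adjusted p of 0.513. It did not pass the adjusted threshold, and the groups overlapped through Pxr-/- PCN 2. Because the CONT group was dim, a bound on the measured means was also taken. For each dim array it used the higher of its own value and its lowest probe well above background. By this bound the level was at least 2.1-fold higher with PCN. The bound carries no sampling error, whereas the limma interval of the log2 difference ran from 0.39 to 2.12. When the 4 near-identical arrays were left out, the difference was 1.48 (SE 0.424, limma adjusted p = 0.494, limma interval 0.539 to 2.42). The bound on the measured means was then at least 2.75-fold. The groups of 4 and 3 no longer overlapped, as for 3.35% of all probes. Without Pxr-/- PCN 1 alone the log2 difference was 0.75. The arrays were washed apart in 2 wash baths. The log2 difference was 0.555 in bath 1 (2 CONT and 2 PCN arrays) and 1.82 in bath 2 (3 CONT and 2 PCN arrays).

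In WT mice the Cyp1b1 difference with PCN was 0.52 on the log2 scale (SE 0.433, limma adjusted p = 0.956). Without the 4 near-identical arrays it was 1.08, or 2.12-fold (SE 0.478, limma adjusted p = 1). The 2 WT PCN arrays then left lay above all 4 WT CONT arrays, as for 6.39% of all probes, and the exact two-sided permutation p of 0.0667 was the smallest this design allows. In wash bath 1 the difference was 0.122, from 2 WT CONT and 3 WT PCN arrays, of which WT PCN 3 and 4 are near-identical ones. In wash bath 2 it was 1.36, from 2 WT CONT arrays and WT PCN 1 alone. The PCN responses of the 2 genotypes differed by 0.738 (95% interval -0.523 to 2, limma adjusted p = 0.857), and by 0.394 without the 4 arrays (95% interval -1.02 to 1.81). Between genotypes, Cyp1b1 was 0.763 lower in Pxr-/- CONT than in WT CONT on the log2 scale (SE 0.406, limma p = 0.0804, adjusted p = 0.446), with an exact two-sided permutation p of 0.0317 and overlapping groups. The bound on the measured means was a level at least 1.49-fold higher in WT CONT, while the limma 95% interval, -1.63 to 0.105, held 0. Without the 4 arrays the difference was -0.727 (95% interval -1.59 to 0.136), the bound at least 1.52-fold and the exact two-sided permutation p 0.0571. In the PCN mice that difference was -0.03 (95% interval -0.951 to 0.901), and -0.333 (95% interval -1.45 to 0.787) without the 4 arrays.

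Marker lists of other cell types were read beside these values. In Pxr-/- mice given PCN, 0 of 8 smooth muscle markers were higher and 5 of 8 were lower at an unadjusted p under 0.05, as were 3.95% of all probes, with a median log2 difference of -0.42 against 0.01 over all probes. Once the 4 near-identical arrays were left out, 3 of 8 were lower at such a p, as were 3.63% of all probes. Their mean level was 13.87 to 14.45 in Pxr-/- CONT and 13.51 to 14.05 in Pxr-/- PCN. The adipocyte marker mean was 8.19 to 9.85 in Pxr-/- CONT and 7.08 to 8.35 in Pxr-/- PCN. There 5 of 6 markers were lower with PCN (median log2 difference -0.789), and 0 of 6 at an unadjusted p under 0.05. Without the 4 near-identical arrays 1 of 6 was lower at such a p (median -1.02), as were 3.63% of all probes. The adipocyte marker mean was 8.94 to 10.59 in WT CONT and 7.75 to 9.32 in WT PCN. With PCN in WT mice 4 of 6 adipocyte markers were lower at an unadjusted p under 0.05, as were 2.17% of all probes (median -1.44), and 0 of 6 without the 4 near-identical arrays (median -0.807). In Pxr-/- CONT against WT CONT mice 4 of 6 were lower at such a p (median -1.40), as were 6.52% of all probes. Without the 4 arrays it was again 4 of 6 (median -1.18), against 5.59% of all probes. In Pxr-/- mice given PCN, 6 of 7 fibroblast markers were higher, as were 52% of all probes, and 0 had an unadjusted p under 0.05. Their mean was 13.003 to 13.42 in Pxr-/- CONT and 13.09 to 13.34 in Pxr-/- PCN. With PCN in Pxr-/- mice 2 of 6 myeloid cell, 5 of 7 T cell and 5 of 7 endothelium markers were higher. Of these lists 1 myeloid cell marker was lower at an unadjusted p under 0.05, as were 3.95% of all probes, and 0 were higher. Without the 4 arrays 2 of 6, 4 of 7 and 6 of 7 were higher. Then 1 myeloid cell marker was higher and 1 lower at such a p, as were 3.56% and 3.63% of all probes. The part of these cells in the Cyp1b1, Ahrr and Tiparp values was not tested, and fewer cells of a type and less RNA per cell cannot be told apart in whole colon.

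The genes whose values were most like those of Cyp1b1 over the 13 arrays without the near-identical ones, by Pearson's r among 25007 genes, were Tgm1 (r = 0.913), Il6 (r = 0.88) and Trpv4 (r = 0.879). Il6 encodes an inflammatory cytokine, Tgm1 a transglutaminase and Trpv4 a cation channel. These are descriptions, and all arrays share groups, baths and tissue makeup. Il6 read 5.03 to 6.01 in WT CONT and 5.30 to 8.001 in WT PCN, and 5.14 to 5.56 in Pxr-/- CONT and 6.30 to 7.17 in Pxr-/- PCN.

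The receptor and its partner varied less over the arrays than most probes. Ahr read 10.27, 10.42, 10.12 and 10.39 on WT CONT arrays 2 to 5, 10.47, 10.16, 10.14 and 10.18 on WT PCN arrays 1 to 4, 10.62, 10.21, 10.32, 10.17 and 10.37 on Pxr-/- CONT arrays 1 to 5, and 10.45, 10.23, 10.46 and 10.14 on Pxr-/- PCN arrays 1 to 4. All 4 groups overlapped, and the SD over 17 arrays was 0.149, above that of 33.9% of all probes. The log2 difference with PCN was -0.04 in WT mice (95% interval -0.288 to 0.2) and -0.01 in Pxr-/- mice (95% interval -0.241 to 0.216). The genotype difference was 0.03 in CONT mice (95% interval -0.196 to 0.262) and 0.06 in PCN mice (95% interval -0.18 to 0.308). Without the 4 near-identical arrays these were 0.01, -0.03, 0.07 and 0.03 in the same order, each with an interval that held 0.

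Arnt, the DNA-binding partner, read 10.53, 10.57, 10.71 and 10.80 on WT CONT arrays 2 to 5 and 10.73, 10.48, 10.58 and 10.47 on WT PCN arrays 1 to 4. It read 11.01, 10.51, 10.55, 10.46 and 10.52 on Pxr-/- CONT arrays 1 to 5 and 10.75, 10.47, 10.66 and 10.78 on Pxr-/- PCN arrays 1 to 4. The groups overlapped, and Pxr-/- CONT 1 stood above all other arrays. The log2 difference with PCN was -0.04 (95% interval -0.243 to 0.167) in WT and 0.07 (95% interval -0.117 to 0.267) in Pxr-/- mice, and without the 4 near-identical arrays it was -0.04 (95% interval -0.31 to 0.221) and 0.06 (95% interval -0.176 to 0.296). The other 2 Arnt probes gave 0.03 and 0.17 with PCN in Pxr-/- mice, neither with an unadjusted p under 0.05.

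Tiparp encodes an ADP-ribosyltransferase that is induced by AHR and represses it. It read 10.50, 10.36, 10.43 and 10.67 on WT CONT arrays 2 to 5 and 10.39, 10.38, 10.62 and 10.39 on WT PCN arrays 1 to 4. It read 10.67, 10.47, 10.61, 10.50 and 10.57 on Pxr-/- CONT arrays 1 to 5 and 10.28, 10.43, 10.41 and 10.21 on Pxr-/- PCN arrays 1 to 4. Every Pxr-/- PCN array lay below every Pxr-/- CONT array, as for 1.42% of all probes, while the WT groups overlapped. The log2 difference in Pxr-/- mice was -0.23 (0.85-fold, SE 0.0815, limma p = 0.0117, adjusted p = 0.548), and the exact two-sided permutation p of 0.00794 was the smallest this design allows. Without the 4 near-identical arrays it was -0.29 (0.817-fold, SE 0.0913, limma adjusted p = 0.533), again with no overlap, as for 3.27% of all probes. Within the wash baths it was -0.14 and -0.33. In WT mice it was -0.05 (95% interval -0.237 to 0.134), and -0.11 (95% interval -0.334 to 0.121) without the 4 arrays. The PCN responses of the genotypes differed by -0.18 (95% interval -0.436 to 0.0699, limma adjusted p = 0.848), and by -0.19 (95% interval -0.49 to 0.118) without them. A change of this size lies under the fold of 1.5 used for calls, and the gene did not pass the adjusted threshold.

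Ahrr encodes the AHR repressor, which competes with AHR for ARNT. On the probe used it read 7.14, 6.85, 7.20 and 6.99 on WT CONT arrays 2 to 5 and 6.86, 6.68, 7.51 and 6.83 on WT PCN arrays 1 to 4. It read 7.02, 7.28, 7.32, 7.12 and 7.24 on Pxr-/- CONT arrays 1 to 5 and 6.62, 6.86, 6.80 and 7.09 on Pxr-/- PCN arrays 1 to 4. The Pxr-/- groups overlapped through Pxr-/- PCN 4 and Pxr-/- CONT 1. The log2 difference with PCN in Pxr-/- mice was -0.36 (0.782-fold, SE 0.149, limma p = 0.031, adjusted p = 0.639), with an exact two-sided permutation p of 0.0238. Without the 4 near-identical arrays it was -0.35 (SE 0.131, limma adjusted p = 0.624), with an exact two-sided permutation p of 0.0857. In WT mice it was -0.08 (95% interval -0.417 to 0.263) with all arrays and -0.28 (95% interval -0.602 to 0.0525) without the 4, of which WT PCN 3 was the highest WT PCN array.

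The second Ahrr probe was at or near background on most arrays. Its log2 signal was 5.70, 4.96, 5.15 and 4.99 on WT CONT arrays 2 to 5 and 5.19, 5.16, 5.02 and 5.16 on WT PCN arrays 1 to 4. It was 5.56, 5.15, 5.20, 5.20 and 5.16 on Pxr-/- CONT arrays 1 to 5 and 7.76, 5.73, 6.25 and 5.25 on Pxr-/- PCN arrays 1 to 4. It was well above background on 4 arrays, WT CONT 2 and Pxr-/- PCN 1, 2 and 3, so it passed the filter mainly through the group in which it was high. Since it was not well above background on any Pxr-/- CONT or WT PCN array, its differences there are given as bounds on the measured means. Its level in Pxr-/- PCN was at least 1.95-fold higher than in Pxr-/- CONT (limma adjusted p = 0.562), and at least 2.19-fold without the 4 near-identical arrays (limma adjusted p = 0.64). Against WT PCN it was at least 1.98-fold higher (limma adjusted p = 1), and at least 2.33-fold without the 4 arrays (limma adjusted p = 0.646). None of these passed the threshold. The bounds carry no sampling error. Because the filter was passed mainly through Pxr-/- PCN, these p-values cannot test whether that group is higher. The probe used was well above background on all 17 arrays, and the values given for Ahrr are those of that probe.

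**Figure D3:**
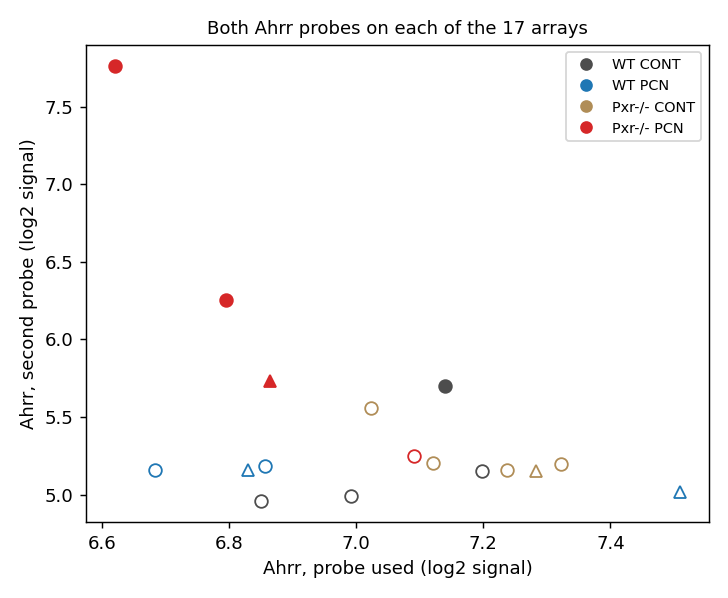
Log2 signal of the second Ahrr probe (vertical) against that of the probe used (horizontal) on each of the 17 arrays, coloured by group. Filled points have the second probe well above background and triangles are the 4 near-identical arrays. Pxr-/- PCN 1 has the lowest value on the probe used, 6.62, and the highest on the second probe, 7.76.

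Nqo1 encodes a quinone reductase that answers both AHR and the oxidant sensor NRF2. It read 10.04, 9.97, 10.17 and 9.57 on WT CONT arrays 2 to 5 and 9.71, 10.39, 10.30 and 10.03 on WT PCN arrays 1 to 4. It read 10.21, 10.25, 10.16, 10.20 and 10.04 on Pxr-/- CONT arrays 1 to 5 and 10.29, 10.01, 10.01 and 10.47 on Pxr-/- PCN arrays 1 to 4. The groups overlapped, and the lowest values were those of WT CONT 5 and WT PCN 1, both with raised liver markers, although WT PCN 2, the third such array, read 10.39. The part of liver RNA in these values was not tested. The log2 difference with PCN was 0.16 (95% interval -0.18 to 0.497) in WT and 0.02 (95% interval -0.295 to 0.338) in Pxr-/- mice, and without the 4 near-identical arrays 0.11 and 0.12. Between the CONT groups Nqo1 was 0.24 higher in Pxr-/- mice (SE 0.148, limma adjusted p = 0.516), with an exact two-sided permutation p of 0.0476, and 0.21 higher without the 4 arrays, with an exact two-sided permutation p of 0.114.

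**Figure D4:**
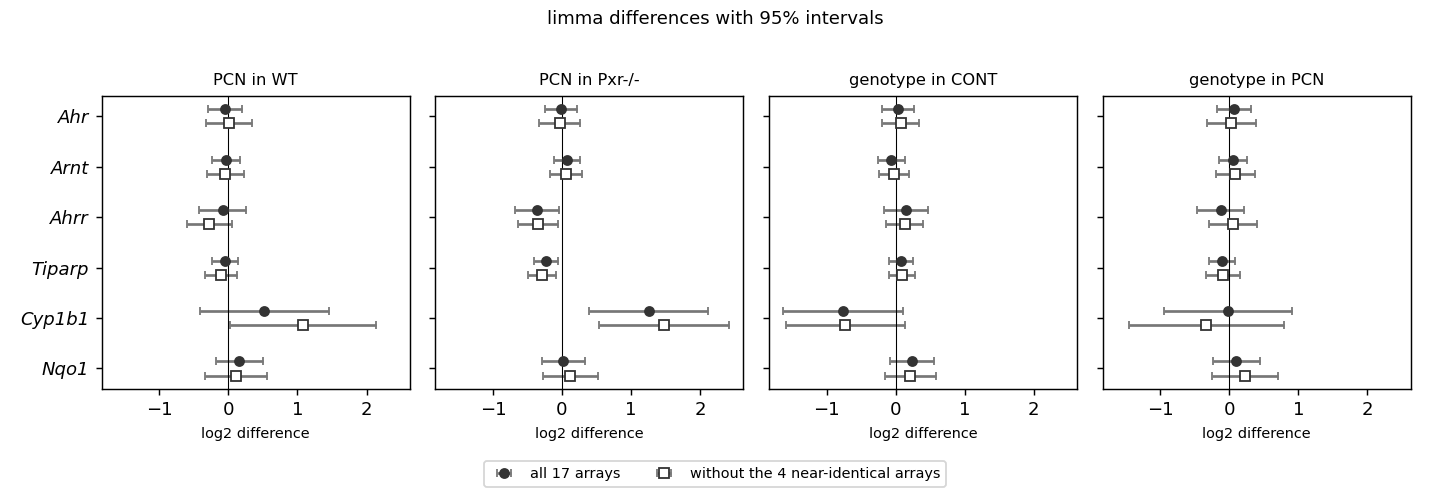
Log2 differences of the 6 tested genes in 4 comparisons, from limma with the wash bath as a term. Circles use all 17 arrays, squares leave out the 4 near-identical arrays, and bars are 95% intervals. With PCN in Pxr-/- mice the intervals of Cyp1b1 lie above 0 and those of Tiparp and Ahrr (probe used) below 0. None of these differences passed the adjusted threshold.

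The wider pathway was read through 4 gene lists. Of the complex that holds AHR in the cytoplasm and its co-activators, 7 genes were tested. With PCN in either genotype 0 were called and 0 had an unadjusted p under 0.05. Of all probes, 3.4% were higher and 3.95% lower at such a p in Pxr-/- mice. In WT mice it was 2.49% and 2.17%. A count of 0 of 7 is near these shares. Of 10 other AHR-responsive genes, 8 were higher with PCN in Pxr-/- mice and 7 in WT mice, as were 52% and 49.9% of all probes, with medians of 0.19 and 0.21 against 0.01 and -0.00013 over all probes. With the 4 near-identical arrays left out it was 9 in Pxr-/- mice (median 0.18) and 6 in WT mice (median 0.111). Of all probes 52.6% and 48.9% were then higher. None was called in either. With all arrays 1 was higher at an unadjusted p under 0.05, in Pxr-/- mice, as were 3.4% of all probes. This was the glutathione transferase gene Gsta2 (log2 difference 0.54, SE 0.232, limma adjusted p = 0.647). Without the 4 arrays Gsta2 was 0.575 higher (limma adjusted p = 0.732) and had no such p. Slc7a5, an amino acid transporter gene, then had such a p (log2 difference 0.226, limma adjusted p = 0.674), as had 3.56% of all probes with a higher value.

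Of 10 NRF2 target genes, which answer oxidants, 8 were higher with PCN in Pxr-/- mice and 7 in WT mice, as were 52% and 49.9% of all probes. The medians were 0.12 and 0.16 against 0.01 and -0.00013 over all probes, and 0 genes were called in either. At an unadjusted p under 0.05, 3 were higher in Pxr-/- mice, as were 3.4% of all probes: Hmox1, Gclm and Txnrd1. In WT mice it was 1, Hmox1, against 2.49% of all probes. If the 4 near-identical arrays were left out, 4 were higher at such a p in Pxr-/- mice, as were 3.56% of all probes. In WT mice it was then 2, against 3.12% of all probes. Me1, the malic enzyme gene, was then lower at such a p in Pxr-/- mice (log2 difference -0.943, limma adjusted p = 0.68), as were 3.63% of all probes. Hmox1, which encodes haem oxygenase, read 9.92, 9.64, 9.79 and 10.20 on WT CONT arrays 2 to 5 and 10.84, 11.42, 9.67 and 10.23 on WT PCN arrays 1 to 4. It read 9.39 to 9.67 in Pxr-/- CONT and 10.095 to 10.64 in Pxr-/- PCN, with no overlap, as for 1.38% of all probes. Its log2 difference with PCN was 0.83 (SE 0.258, limma adjusted p = 0.486) in Pxr-/- and 0.67 (SE 0.275, limma adjusted p = 0.956) in WT mice. Leaving out the 4 near-identical arrays, these were 0.91 (SE 0.17, limma adjusted p = 0.202) and 1.24 (SE 0.191, limma adjusted p = 0.0698), which did not pass the threshold.

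Of 9 enzymes that make or use tryptophan and kynurenine, sources of AHR ligands, 0 were called, and 5 were higher with PCN in Pxr-/- mice and 1 in WT mice, as were 52% and 49.9% of all probes. When the near-identical arrays were left out, 5 were higher in Pxr-/- mice and 4 in WT mice, against 52.6% and 48.9% of all probes. Afmid, a kynurenine formamidase gene, was 0.29 higher with PCN in Pxr-/- mice (SE 0.0745, limma adjusted p = 0.397), and 0.342 higher without the 4 arrays. Between the CONT groups 1 of 9 was higher in Pxr-/- mice, as were 52.1% of all probes, with a median of -0.40 against 0.01 over all probes. Il4i1, an amino acid oxidase gene, had a log2 difference of -0.778 there (SE 0.362, limma adjusted p = 0.392), and of -0.671 without the 4 arrays, then with no unadjusted p under 0.05.

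By the same measure of likeness, the best matching named genes were Cert1 for Ahr (r = 0.93), Tbca for Arnt (r = 0.907), Hecw1 for Ahrr on the probe used (r = 0.868), Ntf3 for Tiparp (r = 0.867) and Igf2os for Nqo1 (r = 0.926). Each was picked from 25007 genes over 13 arrays. Whether its r exceeds what unrelated genes would reach was not tested, so these too are descriptions.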

How the data were processed

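Colon RNA was labelled with Cy3 and hybridised to 17 1-colour mouse arrays. Whether the 4 near-identical arrays hold RNA of separate colons was not tested. Per the file headers, spots were read with Agilent Feature Extraction 10.10.1.1, which gives an intensity per spot, and the deposited processed table holds log2 values of 36695 probes that the authors filtered, corrected for the wash bath and normalized by CrossNorm. Here the median intensity of 59305 spots other than controls was used without outlier spots, put on the log2 scale, quantile normalized and averaged per probe. Probes well above background on at least 4 arrays (38703) were tested with limma 3.58.1 in R 4.3.3, with the 4 groups and the wash bath as terms and Benjamini-Hochberg adjustment over all probes. The script was tested on simulated data. The array number limits the precision, 61% to 69.7% of probes were well above background per array, and p-values measure the spread between these arrays.

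The genes named were the 8 genes themselves, genes of each pathway list at an unadjusted p under 0.05, at most 4 per list and comparison, and the 3 genes most like each member. A further result that this rule would have named is not reported here. The members and lists were chosen with earlier results of these data known. Markers of 11 cell types or tissues were read only as list means and counts. A correlation with Cyp1a1 was planned and not run, since no array measured it well above background. Alternatives were other signals and normalizations, filters, batch terms, blocks and samples left out. Ahr has no promoter entry in the table used.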

Additional observations from a re-analysis of the deposited data

Results flagged for a closer look

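Of 48 groups of 4 or 5 arrays (12 probes in 4 groups), 6 had 1 array set apart from the rest by Dixon's test at its 95% critical value, where chance gives about 1 in 20. On the log2 scale these were Ahr on WT PCN 1 (10.47, others 10.14 to 10.18), the second Ahr probe on WT PCN 3 (5.34), Arnt on Pxr-/- CONT 1 (11.01, others 10.46 to 10.55), the second Ahrr probe on Pxr-/- CONT 1 (5.56, others 5.15 to 5.20), Tiparp on WT PCN 3 (10.62, others 10.38 to 10.39) and Cyp1a1 on Pxr-/- CONT 1 (5.80, others 4.90 to 5.16). Of these, the 3 on Pxr-/- CONT 1 include 2 probes that were not well above background there, and both on WT PCN 3 fall on 1 of the 4 near-identical arrays. With all 17 arrays, and without the 4 near-identical ones, no test of the difference between PCN responses had an unadjusted limma p under 0.05 for any of the 10 probes tested. With 1 array left out it had such a p for Tiparp without WT CONT 5 (log2 difference -0.248, limma adjusted p = 0.926) and for Arnt without Pxr-/- CONT 1 (0.204, limma adjusted p = 0.722).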

How the results depend on the processing

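The count of called genes was 0 in each of the 5 comparisons under all 29 alternatives run, with 5 to 8 genes tested, and no alternative called any of the 6 genes. Of 885 log2 differences of single genes, under these alternatives or on another probe of the gene, 843 kept their sign. The other 42 changed it, and in 40 of these the reported value lay within 1 SE of 0. The cause was not tested. Cyp1b1 with PCN in Pxr-/- mice kept its sign throughout, from 0.752 (without Pxr-/- PCN replicate 1) to 2.68 (processed signal scaled to the 75th percentile), with adjusted p from 0.379 to 0.758 as single arrays were left out. Tiparp ranged from -0.292 to -0.192 in Pxr-/- mice. With the background-corrected (normexp) signal Cyp1b1 was 0.873 there, and with the authors' values 1.21.

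Another probe of the gene turned Ahrr with PCN in Pxr-/- mice to 1, between genotypes in PCN mice to 1.09 and for the difference between PCN responses to 1.05. Other probes also turned Ahr to 0.0511 (PCN in Pxr-/-), -0.0998 (genotype in CONT) and -0.019 (genotype in PCN), and Arnt to 0.0668 (PCN in WT) and -0.000752 (genotype in PCN). Without the 4 near-identical arrays the sign turned for Ahr with PCN in WT (0.0134), for Ahrr between genotypes in PCN mice (0.0587), and for the difference between PCN responses of Ahr (-0.0447) and Nqo1 (0.0104). The latter of Ahr also turned with processed signals (-0.0301) and normexp (-0.0271). Cyp1b1 between genotypes in PCN mice turned with normexp (0.00241) and with no wash bath term (0.197).

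With a replicate block, the replicate number as a term, 4 further signs turned: Ahrr with PCN in WT (0.0477), Nqo1 with PCN in Pxr-/- (-0.0337), Ahr between genotypes in CONT (-0.014) and Cyp1b1 between genotypes in PCN (0.0949). Cyp1b1 in Pxr-/- mice was 1.12 with it, and no call changed. The study's text describes random allocation and no pairing of mice by number. Over all probes, deviations from the group mean correlated above 0.1 for 11 of 22 same-numbered pairs, from -0.334 to 0.493. Pairs with different numbers were not compared, so these correlations do not settle whether the numbers pair the mice.

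Leaving out 1 array at a time turned a sign in these ranges, on the log2 scale. With PCN in WT mice Ahr ranged from -0.131 to 0.0201, Ahrr from -0.249 to 0.0151 and Tiparp from -0.111 to 0.00946. With PCN in Pxr-/- mice Ahr ranged from -0.072 to 0.0685 and Nqo1 from -0.0932 to 0.0928. Between genotypes in CONT mice Ahr ranged from -0.0496 to 0.0868. Between genotypes in PCN mice Ahr ranged from -0.00643 to 0.152, Ahrr from -0.217 to 0.0471, Cyp1b1 from -0.445 to 0.297 and Nqo1 from -0.0782 to 0.187. The difference between PCN responses of Ahr ranged from -0.0362 to 0.113.

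Cyp1b1 was not tested where all 17 arrays had to be well above background. Signal over background limits Cyp1a1 and Cyp1a2, which could not be tested, and makes the values of Cyp1b1 and of the second Ahrr probe near the lower end open to how background is treated. The planned correlations with Cyp1a1 were not run for the same reason.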
